A study of Mus musculus with 12 samples.

Results

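The genes described here mark the oligodendrocyte lineage, the glial cells that make myelin. The 31 members were chosen by name as markers of successive stages of that lineage, and all 31 were found among the 55573 genes of the count table. Of these, 7 mark the precursor cell, 5 encode lineage transcription factors, 3 mark committed and newly formed oligodendrocytes, and 16 belong to the myelinating stage. The rule names the genes and sets no threshold on their values.

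The libraries came from astrocyte-enriched cultures of the cortex of C57BL6/J mouse pups aged 0 to 2 days. At confluence on day 7 in vitro the cultures were shaken to detach other glial cells, and the remaining cells were replated. They carried a virus for 5 days, either the control vector pCIG3, which expresses GFP from a CMV promoter, or pCIG3-ACREB, whose product ACREB blocks the transcription factor CREB in a dominant negative way. They then received PBS or the neuropeptide VIP (vasoactive intestinal peptide) in the bath (0.5 µM, 30 min) and recovered for 90 min before harvest. Each of the 4 groups (control virus with PBS, control virus with VIP, ACREB with PBS, ACREB with VIP) had 3 libraries, numbered 1 to 3. The labels do not say what a number stands for, so the p-values measure the spread between these libraries, which may be technical. The study asked how far the transcriptional response to VIP depends on CREB.

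Oligodendrocytes arise from precursor cells that divide, migrate and carry the growth factor receptor PDGFRA. The factors OLIG2 and SOX10 keep cells in the lineage, and commitment passes through a short GPR17-positive stage before the genes of compact myelin are switched on. In cortical glial cultures, precursor cells typically sit on top of the astrocyte layer, and shaking is the standard way to remove them.

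The libraries held between 16571398 and 20529238 counts. Levels are given as CPM, counts relative to library size, scaled by TMM, which aligns libraries on the bulk of their genes. Control PBS library 2 stood apart: it scored 81.25 on the first principal component, ACREB PBS library 2 scored 34.59 and no other library was above 7.02. GC content and gene length accounted for 44.97% of the variance across genes in how control PBS library 2 departed from each gene's median. The median was taken over the 12 libraries. This share was 22.16% for ACREB PBS library 2 and at most 11.95% for the remaining libraries. The summed CPM of 10 astrocyte markers lay between 6574 and 7676 in every library, and that of Pdgfra, Olig2 and Mbp between 328.7 and 463.1. Of the endothelial markers, Cldn5 was at 0 throughout. Pecam1, Cdh5 and Tek had means of 0.30, 0.33 and 0.13 CPM, and Flt1 had 10.87. Fewer cells of a type and less RNA per cell cannot be told apart in such bulk libraries.

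Transcripts of the listed genes were present in all 4 groups, and Olig1 and Olig2 were far more abundant per length than Mag, Mog and Opalin. Bulk libraries do not show which cells these transcripts came from. Per kilobase of exon, Olig1 had the highest mean level of the 31 genes, 287.1 CPM, followed by Olig2 at 67.34. The other lineage factors Sox8, Sox10 and Nkx2-2 had 33.70, 8.98 and 7.75. The precursor genes Ptprz1, a receptor phosphatase that astrocytes also express, and Pdgfra had 54.60 and 18.46 CPM per kilobase. Of the myelinating stage, Cnp and Sirt2, which encode a phosphodiesterase of the myelin sheath and a deacetylase that is widely expressed, had 59.13 and 43.82. The structural myelin gene Mbp had 5.93. Mag and Mog, which encode proteins of the innermost and the outermost myelin layer, had 1.16 and 0.43. Opalin, a late marker of the oligodendrocyte membrane, was almost absent, with 15 counts over the 12 libraries. Opalin, Ermn (52 counts) and Fa2h (78 counts) were too low for the tests, which left 28 members.

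**Figure D1:**
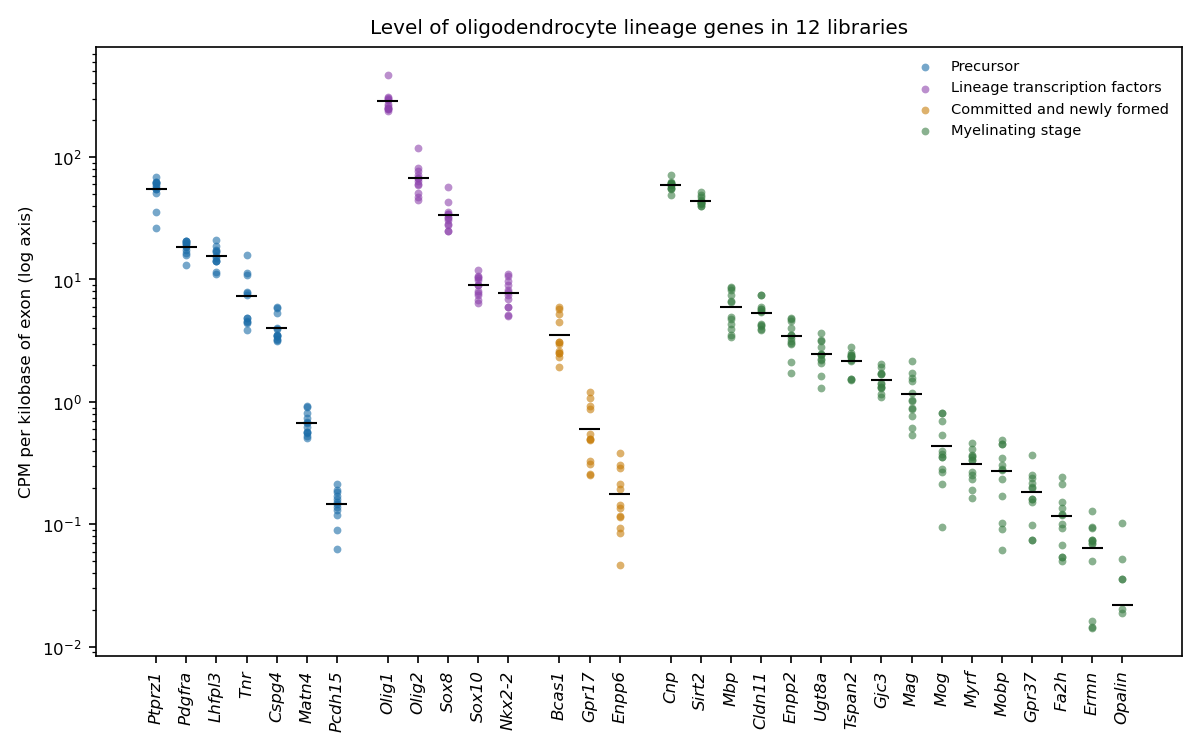
Level of the lineage genes in CPM per kilobase of exon on a log axis, 1 point per library and colours by stage. Olig1 leads with a mean of 287.1, Olig2 follows at 67.34, and Opalin, Ermn and Fa2h sit at the lower end.

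Pdgfra, used here as a marker of precursor cells, had similar levels in the 4 groups. Its CPM was 194.2, 131.6 and 200 in the control PBS libraries and 175.5, 206.3 and 185.0 in the control VIP libraries. With ACREB it was 197.3, 165.8 and 208.1 under PBS and 158.8, 189.1 and 208.6 under VIP. The groups overlapped in every comparison, and the lowest value was that of control PBS library 2. Ptprz1 was also lowest in that library, with 896.6, 373.6 and 841.3 CPM in control PBS and 985.9, 879.2 and 777.3 in control VIP. With ACREB it had 815.7, 510.3 and 869.7 under PBS and 888.1, 719.9 and 775.8 under VIP. Tnr, which encodes the matrix protein tenascin-R, varied 4.12-fold, from 49.45 CPM to 203.7 in control VIP library 2. Its values were 141.1, 58.47 and 62.47 CPM in control PBS, 145.3, 203.7 and 62.66 in control VIP, 100.8, 58.01 and 56.79 in ACREB PBS and 100.6, 96.58 and 49.45 in ACREB VIP. The lowest of the 4 libraries numbered 1 had 100.6 CPM and the highest of the 4 numbered 3 had 62.66, and the number was called for this gene (edgeR adjusted p = 0.04406). Lhfpl3, a tetraspan membrane protein gene, ran from 35.64 to 68.11 CPM, Matn4 from 2.63 to 4.83, and Pcdh15, a protocadherin gene, from 1.50 to 5.09.

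The 2 most abundant genes of the myelinating stage varied little. Cnp had 203.5, 258.9 and 205.2 CPM in control PBS, 198.0, 177.9 and 214.7 in control VIP, 215.0, 226.4 and 222.3 in ACREB PBS and 219.3, 217.4 and 223.5 in ACREB VIP. Sirt2 had 209.6, 263.3 and 223.9 in control PBS, 210.6, 201.3 and 247.3 in control VIP, 214.1, 210.3 and 220.6 in ACREB PBS and 200.6, 210.6 and 235.5 in ACREB VIP. Both were highest in control PBS library 2. Of the remaining genes, Ugt8a, which makes the galactolipids of myelin, ran from 5.86 to 16.69 CPM, the tetraspanin gene Tspan2 from 7.14 to 13.35, Enpp2 (autotaxin) from 9.95 to 28.23 and the receptor gene Gpr37 from 0.45 to 2.22. Ugt8a and Enpp2 were lowest in control PBS library 2.

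All committed genes, most lineage factors and some precursor and myelinating genes differed between the library numbers. With the group held in the model, 13 of the 28 tested members (46.4%) differed between numbers 1, 2 and 3 (edgeR quasi-likelihood F test, Benjamini-Hochberg adjusted over all 16761 genes tested, threshold 0.05), against 15.5% of all genes. All 3 genes of the committed stage were among them, with 4 of 5 lineage factors, 2 of 7 precursor genes and 4 of the 13 tested myelinating genes. With offsets for GC content and length in that model, 29.5% of all genes were called. The member count was 12 to 16 over 3 other settings, and between 7 and 16 when any 1 library was left out. It was 7 without ACREB PBS library 2, where 5.85% of all genes passed, and 8 without ACREB PBS library 3, where 8.33% passed. It was 14 without control PBS library 2, where 17.9% passed, and 16 without control VIP library 2, where 31.8% passed.

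The committed genes were highest in the libraries numbered 3. Bcas1, which marks oligodendrocytes at the onset of myelination, had 9.40 ± 1.88 CPM in the libraries numbered 1, 10.5 ± 1.12 in those numbered 2 and 20.1 ± 2.39 in those numbered 3 (SD, n = 4 each; edgeR adjusted p = 0.001676). Its values were 11.74, 11.61 and 17.04 CPM in control PBS and 9.77, 9.44 and 22.38 in control VIP. With ACREB they were 8.84, 9.56 and 19.55 under PBS and 7.24, 11.23 and 21.57 under VIP. The 4 libraries numbered 3 ran from 17.04 to 22.38 and lay above the other 8. Gpr17, a receptor of the committed stage, had means of 2.03, 2.09 and 5.30 CPM (edgeR adjusted p = 0.001628). Its values in the order of the numbers were 2.60, 2.82 and 4.78 in control PBS, 1.33, 1.70 and 5.60 in control VIP, and with ACREB 2.56, 2.54 and 6.26 under PBS and 1.63, 1.31 and 4.55 under VIP. Enpp6, a choline phosphodiesterase of newly formed oligodendrocytes, had means of 0.86, 0.63 and 1.91 (edgeR adjusted p = 0.01502). Its values were 1.25, 0.75 and 1.86 CPM in control PBS, 0.87, 0.30 and 1.37 in control VIP, 0.60, 0.54 and 2.46 in ACREB PBS and 0.73, 0.93 and 1.97 in ACREB VIP. Both were also higher in each library numbered 3 than in any other library. Reads of Gpr17 and Lims2, and of Bcas1 and its antisense genes, overlap on opposite strands, and since the strand setting of the counting is not given, these counts are uncertain. The same holds for Pdgfra, Tnr, Lhfpl3, Matn4, Olig1, Sox8, Nkx2-2, Cnp, Sirt2, Tspan2, Enpp2 and Ermn, which also overlap a gene on the other strand, and not for Olig2, Sox10, Cspg4, Mbp, Mag or Mog.

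Of the 4 myelinating genes called by number, Mbp, Mag and Mobp had their lowest mean in number 2. With the control virus Mbp had 72.48, 33.63 and 69.79 CPM under PBS and 55.46, 30.08 and 73.33 under VIP, in the order of the numbers. With ACREB it had 42.00, 28.85 and 56.38 under PBS and 40.43, 36.59 and 63.42 under VIP. Every library numbered 2 lay below every other library (edgeR adjusted p = 0.002671 for the number). Mag had 8.73, 3.56 and 5.997 CPM in control PBS and 6.395, 3.10 and 7.07 in control VIP. With ACREB it had 4.25, 2.18 and 4.16 under PBS and 3.65, 2.51 and 4.81 under VIP. The libraries of number 2 were again below all others, with means of 5.76, 2.84 and 5.51 CPM (edgeR adjusted p = 0.005993). Mobp, another structural myelin gene, had means of 2.61, 0.84 and 2.14 (edgeR adjusted p = 0.01536). Cldn11, a tight junction gene of the myelin sheath, was instead highest in number 3, with means of 8.36, 9.07 and 12.5 (edgeR adjusted p = 0.04703).

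Among the other members that differed by number, the proteoglycan gene Cspg4 (NG2), which pericytes also express, was highest in number 2, at 42.51, 62.63 and 39.72 CPM (edgeR adjusted p = 0.00485). Nkx2-2, a factor of precursor differentiation, had means of 16.49, 21.85 and 28.50 (edgeR adjusted p = 0.001019). Markers of other cells also varied by number: the summed CPM of 8 microglial markers was 1252 to 1648 in the libraries numbered 3, against 617.6 to 844.5 and 619.3 to 1233 in those numbered 1 and 2. That of the fibroblast and mural markers was highest in number 2, with means of 1986, 2740 and 2212. Most of this sum was Acta2, with a mean of 2149 CPM over the 12 libraries, and the next marker, Col1a1, had 56.67. The part of the microglial, fibroblast and mural markers in these differences was not tested. The median share of a gene's variance that went with the number was 46.0% for the tested members and 34.1% for all genes tested.

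**Figure D2:**
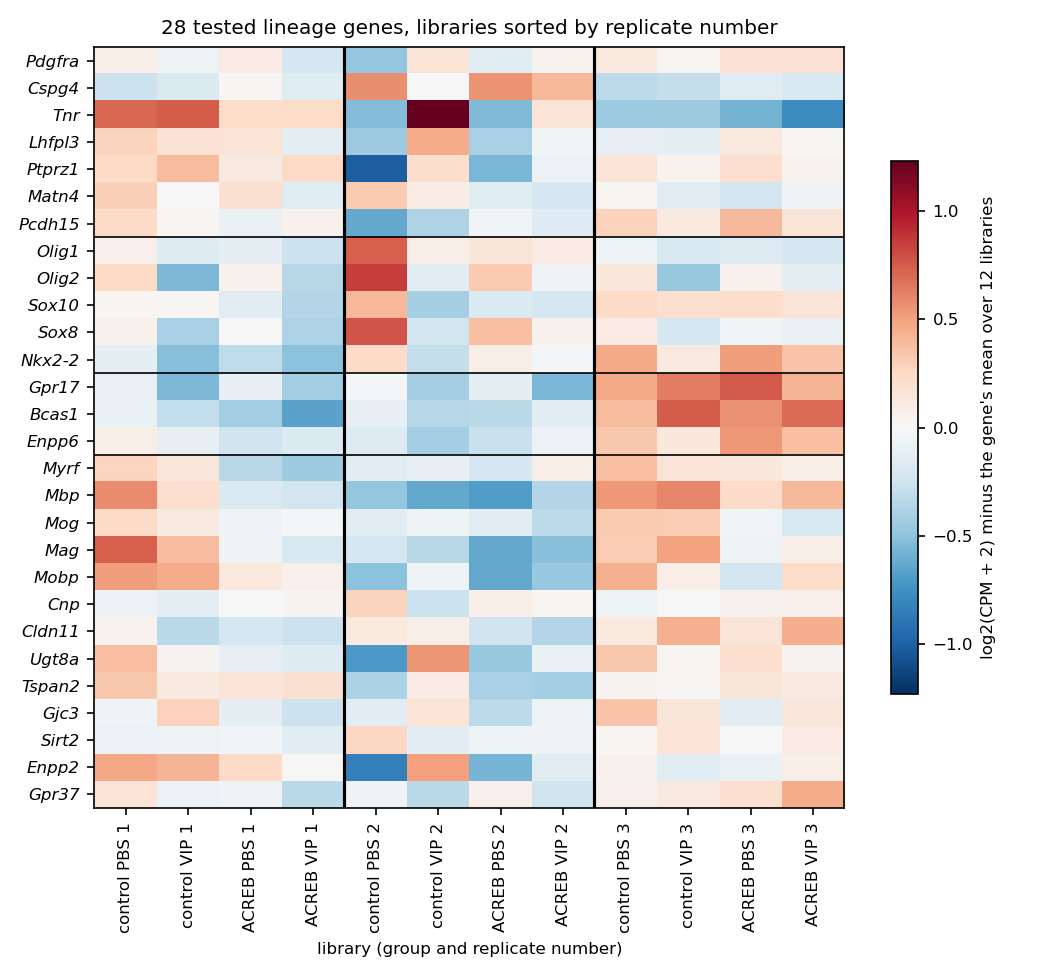
Log2(CPM + 2) of the 28 tested genes minus each gene's mean over the 12 libraries, with the libraries sorted by number. The libraries numbered 3 are high for Bcas1, Gpr17 and Enpp6, and the libraries numbered 2 are low for Mbp and Mag.

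VIP was then compared with PBS in cells with the control virus. All 5 lineage factors had lower values with VIP, and no member passed the test. The median log2 fold change of the factors was -0.47, against -0.02 for all genes, 53.2% of which were lower. No member of 28 was called, where 0.489% of all genes were (edgeR with Benjamini-Hochberg adjustment), and 2 members had an unadjusted p under 0.05, where 6.42% of all genes did.

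Olig2, the factor that specifies the lineage, lies on chromosome 16 (GRCm38 91225457 to 91228677). It had 195.7, 297.9 and 180.3 CPM in the control PBS libraries and 112.0, 149.9 and 118.4 in the control VIP libraries, so the groups did not overlap. The log2 fold change was -0.82 (SE 0.19, 95% interval -1.24 to -0.41, edgeR adjusted p = 0.108). The call depended on the method: DESeq2 gave an adjusted p of 0.006373, with 1.43% of all genes called, and edgeR with offsets for GC content and length 0.0368 (log2 fold change -0.64), with 0.919% called. Olig2 was the 1 member called by each. Control PBS library 2 held the highest value, and without it the log2 fold change was -0.57 (edgeR adjusted p = 0.154).

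Sox8, a factor related to Sox10, had 106.6, 176.4 and 110.2 CPM with PBS and 76.94, 87.45 and 87.95 with VIP. Its groups did not overlap either (log2 fold change -0.64, SE 0.20, edgeR adjusted p = 0.347). Without control PBS library 2 the value was -0.37. Groups apart with VIP lower were found for these 2 of 28 members and for 5.27% of all genes.

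Olig1, a partner of Olig2 in the lineage, had 636.9, 1018 and 589.9 CPM with PBS and 547.9, 646.1 and 534.2 with VIP (log2 fold change -0.38, SE 0.19, edgeR adjusted p = 0.782), and the groups overlapped. The value ran from -0.52 to -0.09 over the 12 fits that each left out 1 library. Nkx2-2 and Sox10, the factor that switches on myelin genes, had log2 fold changes of -0.47 (SE 0.28) and -0.30 (SE 0.20). The summed CPM of 5 ependymal markers was 422.3 to 442.0 with PBS and 307.5 to 403.5 with VIP, so that sum was also apart. Most of it was Foxj1, with a mean of 346.8 CPM over the 12 libraries, and the next marker, Rsph1, had 30.86. The part of the ependymal markers in the differences of the lineage factors was not tested.

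**Figure D3:**
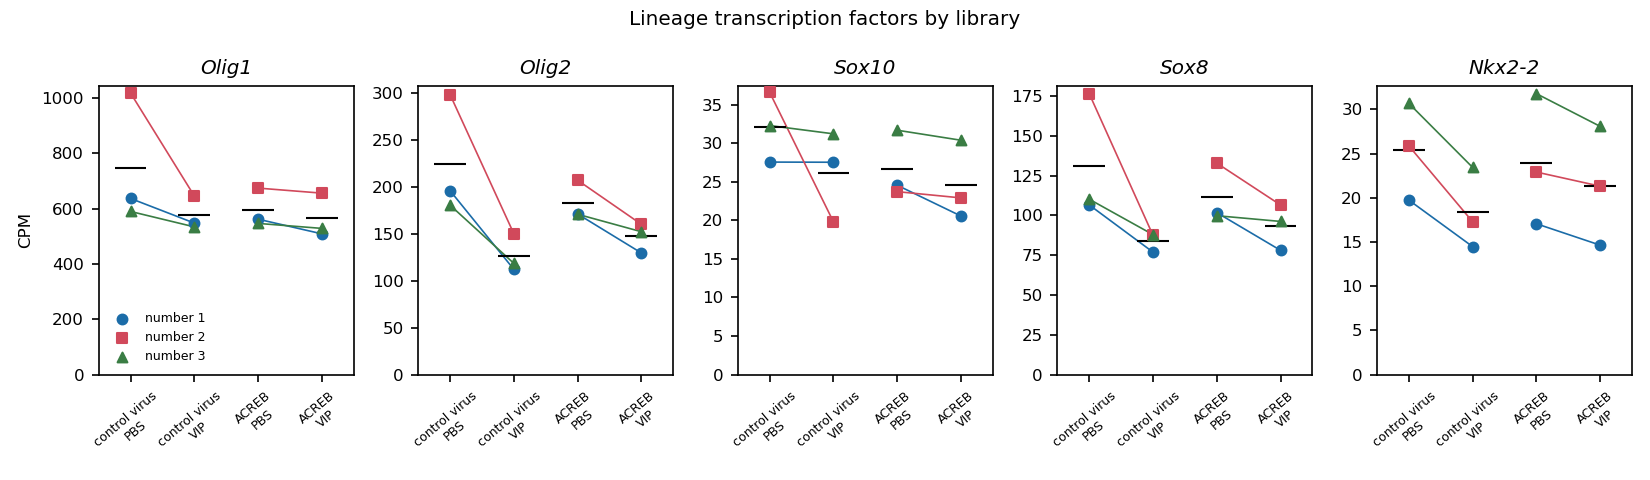
CPM of the lineage transcription factors in each library by group, with the group mean. With the control virus the VIP libraries of Olig2 (112.0 to 149.9) lie below the PBS libraries (180.3 to 297.9), and control PBS library 2 is the highest point.

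Precursor and myelinating genes showed no such common direction with VIP. Of the 7 precursor genes 4 were higher and 3 lower (median 0.11), and of the 13 tested myelinating genes 5 were higher and 8 lower (median -0.08). Between libraries of the same number, the mean log2(CPM + 2) of the precursor genes changed by -0.07, 0.57 and -0.08 in numbers 1 to 3. The pair numbered 2 includes control PBS library 2. Pdgfra had a log2 fold change of 0.11 (SE 0.17), Mbp -0.15 (SE 0.37) and Tnr 0.65 (SE 0.45), and the edgeR adjusted p was 0.782 or more for each.

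Promoter sequences were examined for the letters of the cAMP response element, to which CREB binds, because the design turns on CREB. RefSeq windows (GRCm38.p6) from 250 bases before to 50 after the start were read for 23 of the 31 members. The half-site TGACG, or CGTCA on the other strand (both lie within the full site), occurred in 3 of them (Pdgfra, Mog and Ermn), and in 20.8% of all 32851 windows. The full TGACGTCA occurred in none of the 23, and in 1.79% of all windows. Olig2 and Sox8 were the factors whose groups were apart. Among the members, Mog had the smallest unadjusted p for ACREB against the control virus under VIP. The windows of these genes are shown 5′ to 3′ on the gene's strand, with a half-site in capitals. They were picked after their values were seen, and a match or its absence is a description of these letters.
Olig2 (chr16:91225300-91225599, plus strand): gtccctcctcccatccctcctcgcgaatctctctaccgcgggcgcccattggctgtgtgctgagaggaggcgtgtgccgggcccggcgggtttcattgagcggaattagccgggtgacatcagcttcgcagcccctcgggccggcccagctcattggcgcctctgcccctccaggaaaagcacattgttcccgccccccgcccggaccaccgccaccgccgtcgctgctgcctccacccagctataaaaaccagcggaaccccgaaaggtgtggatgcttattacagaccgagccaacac
Sox8 (chr17:25570637-25570936, minus strand): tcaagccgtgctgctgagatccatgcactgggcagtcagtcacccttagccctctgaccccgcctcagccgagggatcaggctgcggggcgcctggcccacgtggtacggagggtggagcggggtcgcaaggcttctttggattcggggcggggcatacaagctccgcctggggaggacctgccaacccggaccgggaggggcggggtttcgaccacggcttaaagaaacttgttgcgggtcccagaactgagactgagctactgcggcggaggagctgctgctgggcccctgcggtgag
Mog (chr17:37023349-37023648, minus strand): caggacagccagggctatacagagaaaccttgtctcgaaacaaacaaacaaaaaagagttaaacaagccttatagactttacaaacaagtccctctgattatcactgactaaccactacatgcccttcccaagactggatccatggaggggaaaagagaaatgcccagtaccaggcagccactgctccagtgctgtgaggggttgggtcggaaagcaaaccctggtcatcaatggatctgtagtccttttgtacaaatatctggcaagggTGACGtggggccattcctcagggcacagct
The half-site of Mog begins at base 21 counted from the start, and the windows of Olig2 and Sox8 hold none.

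With the ACREB virus, VIP was again compared with PBS. No member was called, where 0.0119% of all genes were, and none had an unadjusted p under 0.05, where 1.92% of all genes did. All 5 lineage factors were lower again (median -0.16, against 0.00 for all genes). Olig2 had 171.0, 206.9 and 170.7 CPM with PBS and 129.5, 160.0 and 152.1 with VIP. The groups did not overlap (log2 fold change -0.31, SE 0.19, edgeR adjusted p = 1), which was so, with VIP lower, for 3.26% of all genes. Sox8 had 101.8, 132.9 and 99.87 CPM with PBS and 78.10, 106.6 and 96.27 with VIP, and its groups overlapped (log2 fold change -0.25, SE 0.20). Gpr17 had 2.56, 2.54 and 6.26 CPM with PBS and 1.63, 1.31 and 4.55 with VIP (log2 fold change -0.59, SE 0.61).

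The difference between the VIP responses with ACREB and with the control virus was tested directly. No gene of the 16761 was called, and 1.20% had an unadjusted p under 0.05, none of them a member. DESeq2 called no member either. The 5 lineage factors all had positive values, which is a smaller decrease with ACREB (median 0.30, against 0.01 for all genes). The value was 0.51 for Olig2 (SE 0.26, 95% interval -0.07 to 1.09, edgeR adjusted p = 1), 0.39 for Sox8 (SE 0.28) and 0.30 for Olig1 (SE 0.27). Without control PBS library 2 these values were 0.25, 0.11 and 0.01.

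ACREB was compared with the control virus under PBS. Of the 13 tested myelinating genes 12 had lower values with ACREB (median -0.22), against 48.8% of all genes, and no member was called, where 0.0358% of all genes were. No member had an unadjusted p under 0.05 either, where 5.30% of all genes did. The CPM of all 28 members overlapped between the groups, while 4.44% of all genes were apart with ACREB lower and 4.34% with ACREB higher. Mag had 8.73, 3.56 and 5.997 CPM with the control virus and 4.25, 2.18 and 4.16 with ACREB (log2 fold change -0.79, SE 0.40, edgeR adjusted p = 0.956). Mog had 1.195, 0.46 and 1.38 CPM and then 0.60, 0.48 and 0.64 (-0.81, SE 0.51). With either virus the library numbered 2 was the lowest for both genes. Mobp had a log2 fold change of -0.93 (SE 0.64), Myrf, the factor that activates myelin genes, -0.54 (SE 0.34) and Mbp -0.47 (SE 0.37). Of the other stages, all 5 lineage factors were also lower with ACREB (median -0.27), as were 2 of 7 precursor and 2 of 3 committed genes. Olig1 had -0.33 (SE 0.19), which was -0.04 without control PBS library 2, and Matn4, a matrix gene of precursor cells, -0.42 (SE 0.22). Olig1 had 562.0, 674.4 and 546.7 CPM in ACREB PBS and 509.1, 656.1 and 528.7 in ACREB VIP. Matn4 had 4.68, 4.83 and 3.56 CPM in control PBS and 4.20, 2.90 and 2.63 in ACREB PBS.

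Under VIP, 11 of the 13 tested myelinating genes had lower values with ACREB (median -0.24), against 49.6% of all genes, and again no member was called, where 0.0537% of all genes were. Mog had 0.92, 0.60 and 1.37 CPM with the control virus and 0.67, 0.16 and 0.36 with ACREB. Its log2 fold change was -1.26 (SE 0.53, edgeR adjusted p = 0.803), on 165 counts in all 12 libraries. It was the 1 member with an unadjusted p under 0.05, where 5.69% of all genes had one. Gjc3, which encodes a connexin of oligodendrocytes, had 8.34, 7.495 and 7.39 CPM and then 5.05, 6.11 and 7.35, so the groups were narrowly apart (-0.33, SE 0.20). Cnp was apart in the other direction (0.16, SE 0.11). Groups apart were found for 7.06% of all genes with ACREB lower and for 6.97% with ACREB higher. Tnr had a log2 fold change of -0.74 (SE 0.45), and its highest value was that of control VIP library 2. Mbp had -0.18 (SE 0.37), and 0.13 without control VIP library 3.

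Markers of some other cells had higher values with ACREB, and none of them was called. The median log2 fold change was 0.40 under PBS and 0.46 under VIP over 8 microglial genes, 0.43 and 0.35 over 4 ependymal genes, and 0.63 and 0.51 for Flt1, the 1 endothelial marker tested. The summed CPM of the microglial list overlapped between the viruses, at 647.7 to 1252 against 844.5 to 1575 under PBS and 617.6 to 1327 against 795.8 to 1648 under VIP. That of the ependymal list was 422.3 to 442.0 against 365.2 to 449.2 under PBS and 307.5 to 403.5 against 350.2 to 399.2 under VIP, and that of the endothelial list 7.07 to 11.6 against 10.2 to 18.4 and 7.16 to 11.8 against 10.8 to 18.1. The part of these lists in the values of the myelinating genes was not tested.

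**Figure D4:**
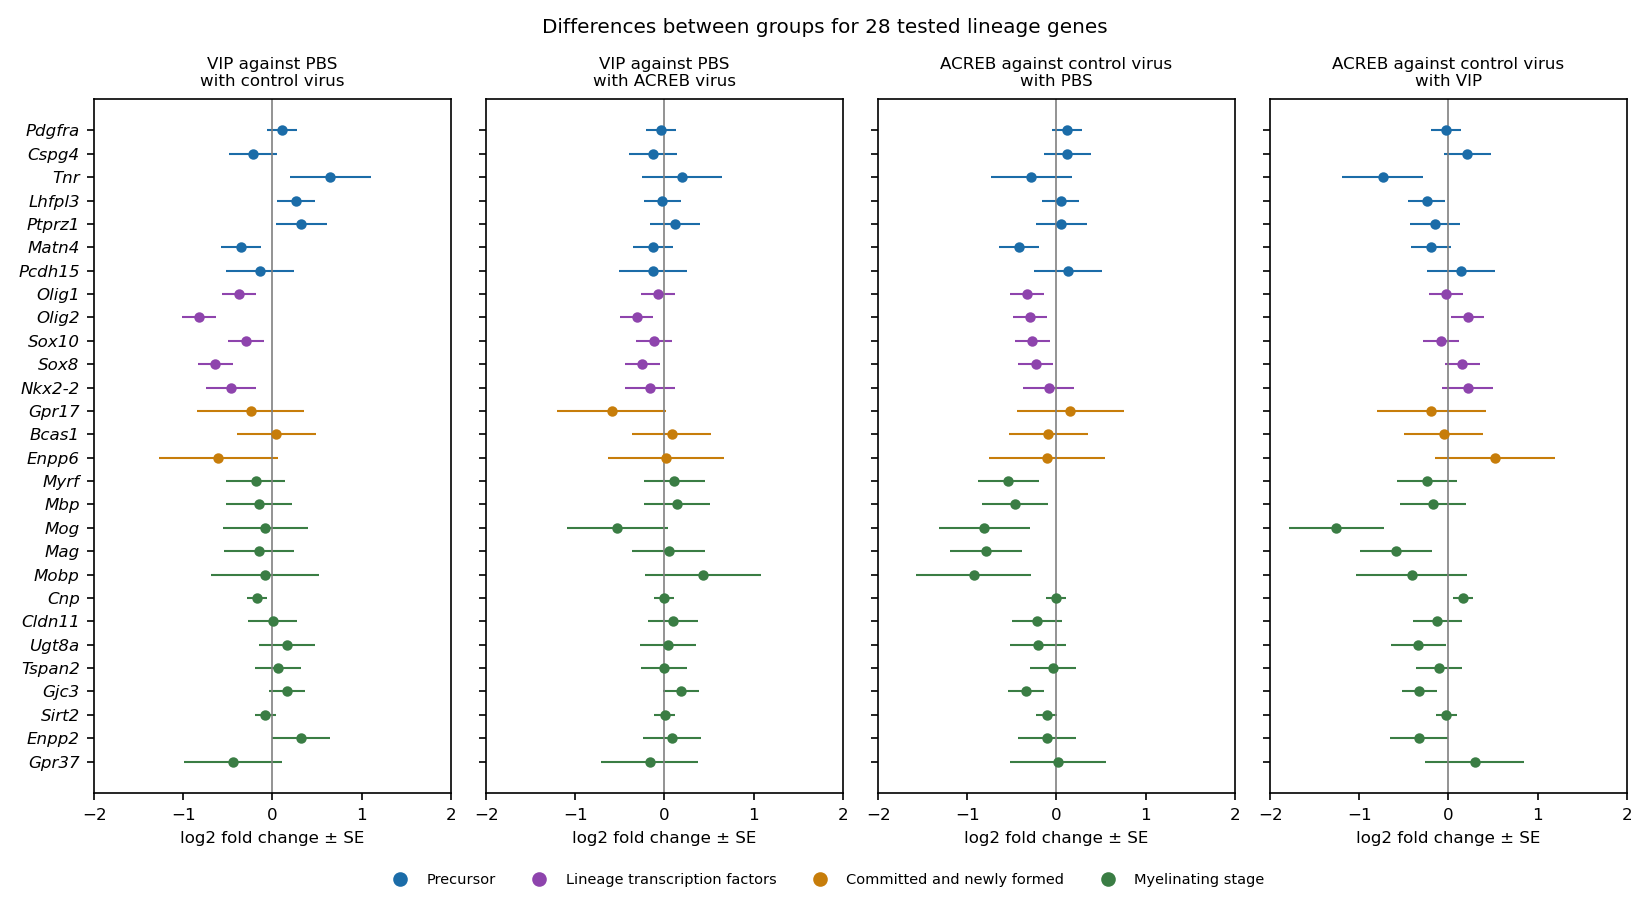
Log2 fold change with its SE for the 28 tested genes in the comparisons of VIP with PBS and of ACREB with the control virus, coloured by stage. The lineage factors lie left of 0 for VIP and for ACREB under PBS. Of the 13 myelinating genes, 12 and 11 lie left of 0 for ACREB under PBS and under VIP. No gene passed the test.

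The balance of stages was described as the mean log2(CPM + 2) of the 7 precursor genes minus that of the 16 myelinating genes. It was 2.25 ± 0.12 in control PBS, 2.40 ± 0.28 in control VIP, 2.44 ± 0.09 in ACREB PBS and 2.41 ± 0.21 in ACREB VIP (SD, n = 3 each). The groups differed by less than the SD of control VIP, the widest of the 4. The difference of ACREB PBS from control PBS, 0.19, was above the SDs of those 2 groups (0.09 and 0.12). The balance was not tested. Within each group the library numbered 3 had the lowest balance, and the mean was 2.45 for number 1, 2.49 for number 2 and 2.19 for number 3. Under PBS the ACREB libraries had 2.52, 2.46 and 2.34 against 2.37, 2.24 and 2.14 with the control virus. With medians over genes in place of means that difference was 0.42 and not 0.19. The committed genes had a mean of 3.10 ± 0.09 in the libraries numbered 3, against 2.33 and 2.35 in the others (SD, n = 4).

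**Figure D5:**
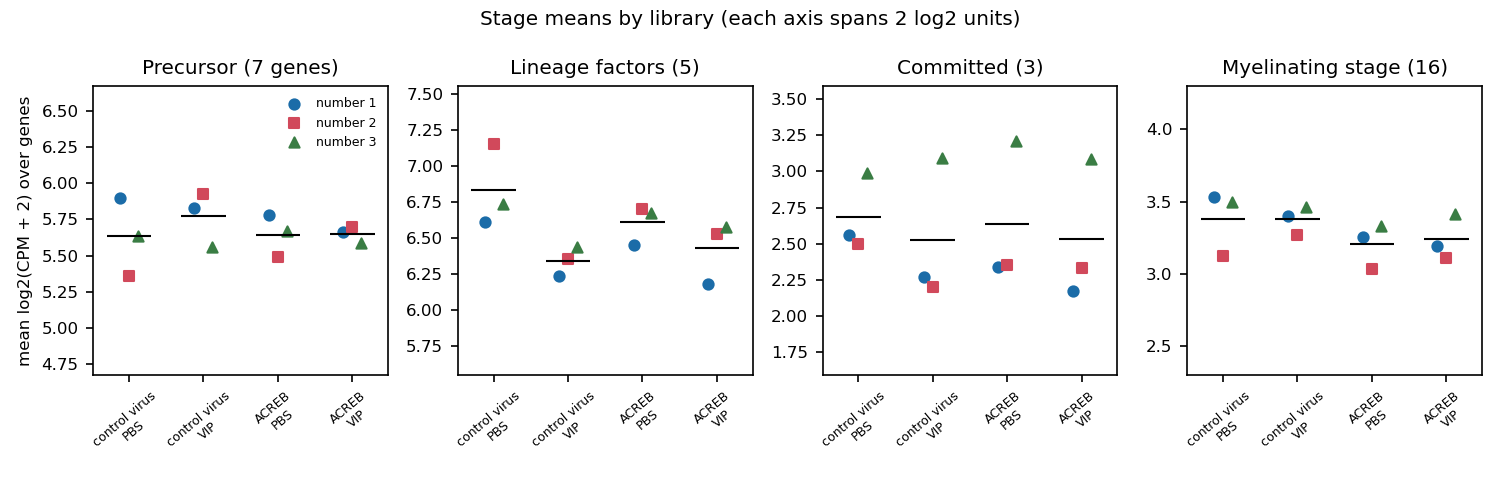
Mean log2(CPM + 2) over the genes of each stage in every library, by group, each axis spanning 2 log2 units. The libraries numbered 3 are highest for the committed genes in all 4 groups, and the lineage factors of control PBS lie above those of control VIP.

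A further list of 54 genes of the lineage was read in the same fits, and 46 of them were tested. None was called by edgeR in any comparison of treatment or virus in the model with 1 mean per group, where 0 to 0.489% of all genes were. An unadjusted p under 0.05 was found for 5 of them for VIP with the control virus, for 0 with ACREB, for 3 each for ACREB under PBS and under VIP, and for 0 for the interaction. In the same order, 6.42%, 1.92%, 5.30%, 5.69% and 1.20% of all genes had one. The median log2 fold change for VIP with the control virus was -0.08, against -0.02 for all genes. For ACREB it was -0.06 under PBS and -7.28e-04 under VIP, against 0.01 and 0.00 for all genes. The 3 genes with an unadjusted p under 0.05 were Mal, Car2 and Tubb4a in both ACREB comparisons. With ACREB, Mal was higher under PBS and VIP (log2 fold change 0.48 and 0.65), as was Car2 (0.26 and 0.33). Tubb4a was lower (-0.91 and -0.75). By library number 17 of the 46 were called, against 15.5% of all genes. Apod, which encodes a lipid-binding apolipoprotein, had means of 4.07, 15.9 and 6.67 CPM in numbers 1 to 3 (edgeR adjusted p = 1.96e-04). Gpr37l1, a receptor that astrocytes also express, had means of 51.5, 74.8 and 33.9 (edgeR adjusted p = 2.90e-04).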

How the data were processed

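RNA was sequenced from 12 libraries in 4 groups of 3. The submitters' processing notes name, without their roles, HTSeq 0.11.2, STAR 2.7.1a, Trimmomatic 0.39, edgeR and R 3.6.1, with the build GRCm38. The libraries were strand-specific, per the labels' protocols; no source used here gives the counter's strand setting or its annotation. The authors deposited raw counts per gene, and these were tested as deposited. Gene symbols came from GENCODE M21, which matched 55480 of 55573 IDs.

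Counts were fitted with edgeR 4.0.16 (R 4.3.3; quasi-likelihood, TMM, filterByExpr, 1 mean per group, all 12 libraries), which left 16761 genes. P-values were adjusted over all of them, with a threshold of 0.05. SE is the log2 fold change divided by the root of F. The library number was tested in a model with group and number. Library totals ran from 16571398 to 20529238. The replicate numbers were not treated as pairing the libraries; the check is given with the alternatives. Those were DESeq2 1.42.0 and its size factors, no filter, a replicate block, offsets for GC content and length, only the 6 libraries compared, and leaving out each library. The fits were tested on simulated data.

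The members and lists were chosen with earlier results of these data known. By the rule for named genes, values in every library are given for Pdgfra, Olig2, Mbp, the 3 most abundant members of each stage and the 3 with the smallest p in a comparison. Members called only by library number are given by their means.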

Additional observations from a re-analysis of the deposited data

Results flagged for a closer look

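Olig2 and Sox8 drew attention because ACREB and control libraries of the same number differed in opposite directions under PBS and under VIP. With ACREB, Olig2 was lower in all 3 same-numbered pairs under PBS (mean log2 difference -0.264) and higher in all 3 under VIP, and the differences under VIP and under PBS were 0.482 apart. For Sox8 the mean under PBS was -0.203 and the gap was 0.345. Tested directly as the interaction of virus and VIP, neither passed (edgeR adjusted p = 1 for both). The comparisons under PBS include control PBS library 2, which stood apart. Without it the log2 fold change of Olig2 for ACREB under PBS was -0.04, against -0.30 with it.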

How the results depend on the processing

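For VIP against PBS with the control virus, the number of members called was 0. It was 1 with no filter on low counts, with DESeq2 and with GC and length offsets (Olig2 in each), and 0 with DESeq2 size factors, with only the 6 libraries compared and in all 12 fits that left out 1 library. With the replicate block it was 3 (Olig2, Sox8 and Nkx2-2; adjusted p 0.003958, 0.0364 and 0.0452), with 1.63% of all genes called, and with offsets and block together 2 (Olig2 and Sox8), with 3.62% of all genes called. With the block and 1 library left out, a setting added after seeing the data, it was 1 to 2: Olig2 passed in 12 of 12 fits, Sox8 in 3 and Nkx2-2 in none.

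Whether the replicate numbers pair the libraries could not be settled. The rule asked every one of 18 same-numbered pairs to correlate above 0.1 in their deviations from the group means. On log2(CPM + 2), the first version computed, 17 did (lowest 0.0864). Of 5 versions looked at, 3 met the rule, on edgeR log2 CPM with prior counts of 2 (lowest 0.132) and 0.5 (0.133) and on log2(CPM + 0.5) (0.124), and 2 did not, the other being a rank correlation on log2(CPM + 2) (lowest -0.0458, 15 of 18). The calls with the block were already known when these versions were compared, so the first was kept and the block stands as an alternative only. In all 12 libraries the highest correlation was with a library of the same number, a hint from the data and not from the design.

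Members called by library number were 13, with 12 to 16 over 3 other settings and 7 to 16 with 1 library left out. The share of all genes called by number was 15.5%, and 29.5% with offsets for GC content and length. The stage balance for ACREB under PBS was 0.19, and 0.418 with medians over genes. Mbp for ACREB under VIP turned from -0.18 to 0.133 without control VIP library 3 (range -0.46 to 0.133). Of the further list, the block called 3 genes that the fit without it did not: Elovl7 (higher, adjusted p = 0.0498) and Lingo1 (lower, 0.0342) for VIP with the control virus, and Tubb4a (lower, 0.0498) for ACREB under PBS. The block called 1.63% of all genes for VIP with the control virus and 0.221% for ACREB under PBS. In the other 4 comparisons of groups the number of members called was 0 under every alternative run. The lowest genes rest on few counts, 165 for Mog and 246 for Gpr37 over 12 libraries, which limits the precision of their values.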

Other observations

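The members too low for the tests were read as summed counts, a look added after their values were seen. Of the 15 counts of Opalin, 2 came from control PBS, 11 from control VIP (6 of them from 1 library), 1 from ACREB PBS and 1 from ACREB VIP. Ermn, a cytoskeletal gene of mature oligodendrocytes, had 31 counts with the control virus and 21 with ACREB. Fa2h, which hydroxylates myelin lipids, had 48 and 30. By library number, Ermn had 25, 19 and 8 counts in numbers 1 to 3, and Fa2h had 19, 19 and 40. These sums carry no test.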
